A study of Rattus norvegicus with 8 samples.

Results

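The genes described here handle fatty acids outside and at the surface of the cell, store them in lipid droplets, or signal from fat tissue: Cd36, Lpl, Fabp4, Fabp5, Plin1, Plin2, Adipoq and Lep. They were taken as all probe sets of the array whose annotation gives exactly 1 gene symbol equal to one of these names. A probe set is a group of short probes near the 3' end of a transcript. All 8 genes were found, with 10 probe sets among 31042 for transcripts (14217 named genes): 6 genes had 1 probe set, and Plin1 and Plin2 had 2. A further probe set names Cd36 together with another gene and was left out.

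Whole blood RNA of rats on a high-fat diet (Quick fat) and rats on a normal diet (CE-2) was measured on 4 arrays per diet. Each array is taken here as 1 animal. The comparison asks how blood transcripts differ between these diets. All were male Wistar rats that arrived at 7 weeks of age, ate the normal diet for a week and then the assigned diet for 8 weeks; blood was drawn on day 56 after a night without food. The labels state 10 animals per diet in the study and call the 4 arrays of a diet biological replicates, without saying how those animals were picked or whether any blood was pooled. The series also names a high-fat diet with mulberry leaf powder, which is not analysed here.

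Long-chain fatty acids reach cells either bound to albumin or inside lipoprotein triglyceride. Lipoprotein lipase, made by Lpl, frees them from triglyceride at the vessel wall. Cd36, a membrane scavenger receptor, promotes their uptake, fatty acid binding proteins carry them through the cytosol, and perilipins coat the droplets in which they are stored. Adiponectin (Adipoq) and leptin (Lep) are hormones of fat cells. In human blood, Cd36 protein is best known from platelets, monocytes and red cell precursors, while Plin1, Adipoq and Lep are best known from fat cells.

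Of the 8 genes, 2 lay clearly above the range of genes that blood is not known to use: Cd36 and Plin2. The files hold no calls of presence, so 51 probe sets of 44 genes of the retina, brain, pancreas, muscle, liver, skin and other tissues served as an off-blood range, and a mean level above their 95th percentile, 6.91 log2 units, was counted as above it. Of all probe sets, 33.6% passed that line. Cd36 had a mean level of 9.235 log2 units, at the 97.8th percentile of each array. Plin2 had 8.36 by probe set 1382680_at (94.9th percentile) and 7.83 by probe set 1390383_at (90.3rd percentile). No off-blood probe set was brighter than any of these 3, and the brightest stood at 7.39.

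The other 7 probe sets, of 6 genes, did not pass the line. Lep had a level of 6.65, with 10 of the 51 off-blood probe sets above it, and Adipoq had 6.39, with 22 above it. Fabp5, the epidermal-type binding protein that many cell types make, had 6.28, with 32 above it. Plin1, the perilipin of fat cell droplets, had 6.23 and 6.22 by its 2 probe sets. Lpl, at 5.92, and Fabp4, the fat cell and macrophage binding protein, at 5.88, were the dimmest, each with 48 off-blood probe sets above it. Probe sets differ in how strongly they bind, so this order describes signal on the array and not amounts of RNA, and a probe set below the line does not show that the transcript is missing.

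The label of the tissue was checked with marker lists. Above the line were 9 of 10 measured markers of red cell precursors, 8 of 9 of platelets, 6 of 10 of monocytes, 4 of 7 of neutrophils, 6 of 7 of T cells and 4 of 4 of B cells. Fat cell markers other than the genes described here passed it in 3 of 13 cases (Adrb3, Lipe and Slc2a4), beside 33.6% of all probe sets. The dimmest of the 13 were Cfd, Cidec and Pparg, named after their levels were seen, at 6.19, 6.12 and 6.04. Of those below the line, Thrsp was nearest to it, at 6.79. Of 6 endothelial markers 1 passed, Esam.

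**Figure D1:**
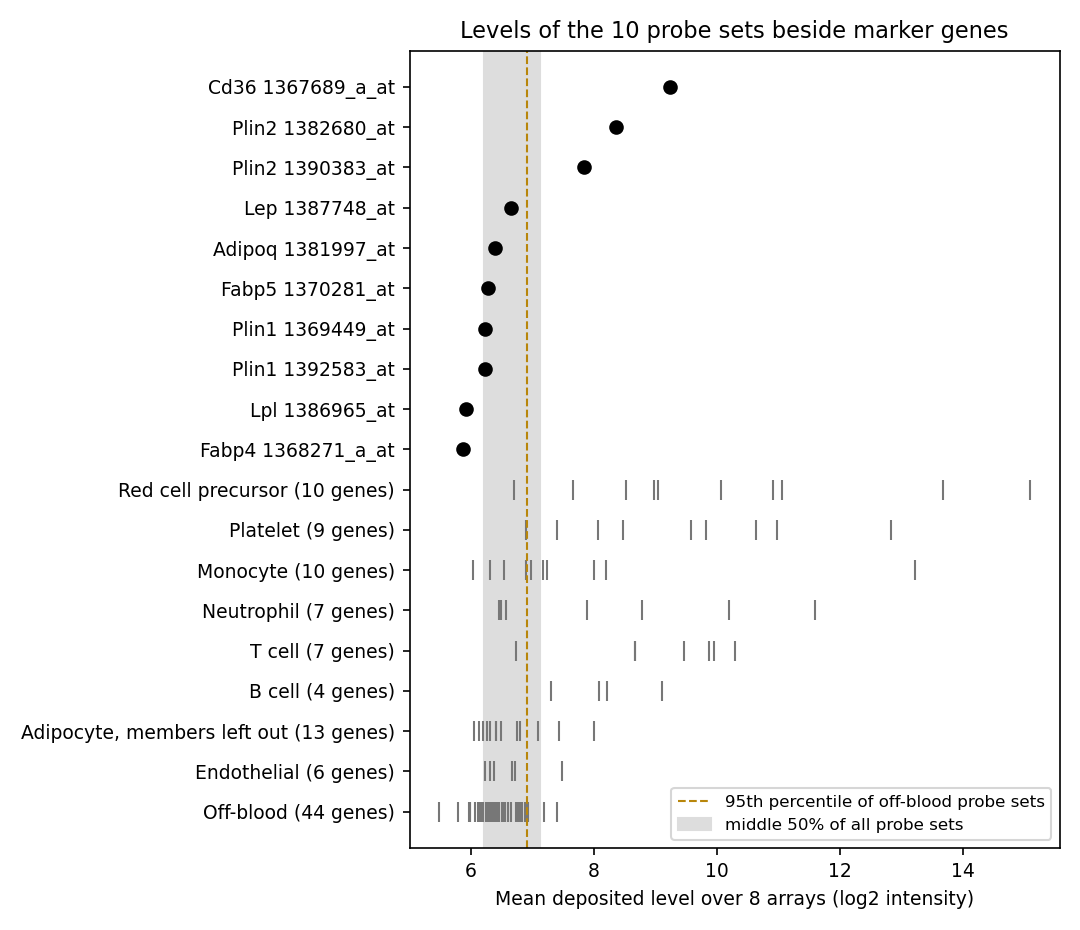
Mean deposited level of each probe set over the 8 arrays (log2 intensity, horizontal axis), with 1 dot per probe set of the 8 genes and 1 tick per marker gene below. The grey band runs from the lower to the upper quartile of all probe sets. Cd36 and both Plin2 probe sets lie to the right of the dashed line at 6.91, and the other 7 dots lie to its left among the off-blood genes.

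The start regions of Cd36 and Plin2, the 2 genes above the off-blood range, are shown for context, from 250 bases before to 50 bases after the annotated start, read in the direction of the gene (RefSeq, GRCr8). Cd36 lies on the plus strand, chr4:18246332-18246631. The Plin2 region shown is the more upstream of 2 annotated starts, on the minus strand, chr5:106228969-106229268. Capitals mark matches on either strand to any of 4 short motifs, none of which overlapped another here. Of the nuclear receptor element only a part was searched, AGGTCA. The E-box was searched as CACGTG. The TATA box was searched as TATAAA. The GATA site was searched as GATAAG.

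Cd36: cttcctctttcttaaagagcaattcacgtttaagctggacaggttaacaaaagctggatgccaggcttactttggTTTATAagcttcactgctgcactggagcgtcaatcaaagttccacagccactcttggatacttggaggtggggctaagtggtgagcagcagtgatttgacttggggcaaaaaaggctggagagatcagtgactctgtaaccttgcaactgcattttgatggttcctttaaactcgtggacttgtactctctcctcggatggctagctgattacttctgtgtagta

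Plin2: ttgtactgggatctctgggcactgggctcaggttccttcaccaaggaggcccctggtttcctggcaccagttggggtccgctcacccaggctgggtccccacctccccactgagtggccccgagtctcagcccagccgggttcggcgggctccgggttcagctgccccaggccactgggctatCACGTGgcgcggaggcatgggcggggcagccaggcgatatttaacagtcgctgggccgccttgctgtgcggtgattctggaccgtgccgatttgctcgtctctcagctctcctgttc

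The Cd36 region held TATAAA once, on the opposite strand and at position -175 from the start, and the Plin2 region held CACGTG once, at position -67. Of the 33469 regions in the table, 14.2% held TATAAA and 6.42% held CACGTG. The nuclear receptor element was found in 16.2% of all regions and the GATA site in 7.05%, and neither was in any of the 6 regions listed for Cd36, Plin1, Plin2, Adipoq and Lep. These letters say nothing of whether a factor binds there. GC content was 45.7% for Cd36 and 65.7% for Plin2, against a median of 51.7% over all regions. These letters were matched only, and the array holds no measurement at them.

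Before the diets are compared, the scale of the deposited values has to be stated. A probe set hardly differs between the 8 arrays in this table: the median SD over the arrays was 6.07e-06 log2 units, and the largest range of any probe set was 0.408. A difference here cannot be read as a log2 ratio of transcript amounts, and compression may differ from probe set to probe set. Each difference, high-fat less normal, is given on the deposited scale and then divided by the SD pooled within the diets (within-group SDs). No fold change is given.

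No probe set of the 8 genes was distinguished between the diets once all probe sets were considered. With limma, 0 of the 10 had an adjusted p under 0.05, and 0 of all 31042 did (0%), the smallest adjusted p of any probe set being 0.736. Without adjustment, limma put 699 probe sets (2.25%) below 0.05, and of the 10 only Fabp4 was one of them. The 10 split into 5 higher and 5 lower in high-fat blood, and their median difference was 0.0312 within-group SDs, against -0.0479 over all probe sets, of which 46.6% were higher. These directions depend on the scaling: with each array centred on its median, 2 of the 10 were higher (Cd36 and Plin2 by 1382680_at) and 8 lower, and 1.63% of all probe sets were higher, since the array medians differ by 6.60e-05, more than most differences. With quantile normalization on top, 3 of the 10 were higher, 1 was lower and 6 were equal. All high-fat values lay above all normal values in 0.586% of all probe sets and below them in 0.857%. Among the 10 probe sets this was so for 1, Cd36, which lay above. In whole blood a lower level can come from fewer cells of a type or from less RNA in each, and the 2 cannot be told apart.

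Cd36 was the one gene of the 8 whose values did not overlap between the diets, by a margin that is small beside the distance of 1 animal. Relative to its mean over the 8 arrays, Cd36 stood at 0.00971, 3.74e-04, -2.49e-04 and -4.65e-04 in high-fat replicates 1 to 4, against -0.00168, -0.00188, -0.00192 and -0.00388 in normal replicates 1 to 4. Every high-fat animal was above every normal one, but high-fat replicate 1 stood far above the other 3 and normal replicate 4 below the other 3. The mean level was 9.237 ± 0.0049 in high-fat blood and 9.233 ± 0.0010 in normal blood (SD, n = 4 each). The difference was 0.00468 ± 0.00237 (SE), with a 95% interval from -9.46e-04 to 0.0103, or 1.32 within-group SDs (limma, unadjusted p = 0.0895, adjusted p = 1). The exact two-sided permutation test of this probe set alone gave p = 0.0286, the smallest that 4 against 4 animals allow. An earlier analysis of these data had already singled out Cd36 for its value, so that p is a description and not independent evidence.

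How far 1 animal carries the Cd36 difference can be read from the gaps. High-fat replicate 1 exceeded the next high-fat animal by 0.00934, while the lowest high-fat animal exceeded the highest normal one by 0.00122. High-fat replicates 2 to 4 spanned 8.39e-04 and normal replicates 1 to 3 spanned 2.40e-04, both less than the gap between the diets. Without high-fat replicate 1 the difference fell to 0.00223 but came to 2.64 within-group SDs because the spread shrank as well. Groups that do not overlap stay apart when animals are left out. The exact permutation p, 0.0571, was thus bound to be the smallest for 3 against 4 animals and adds no support. Without normal replicate 4 as well the difference was 0.00172, and the exact p of 0.1, the smallest possible, was likewise fixed in advance. By limma the adjusted p was 1 in each of these fits. Cd36 also ranked among the most variable probe sets of the table: 44 of 31042 had a larger SD over the 8 arrays, and 15 had a larger absolute difference between the diets. These are ranks on the deposited scale, where compression may differ between probe sets. By unadjusted limma p, Cd36 ranked only 1374 of 31042.

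**Figure D2:**
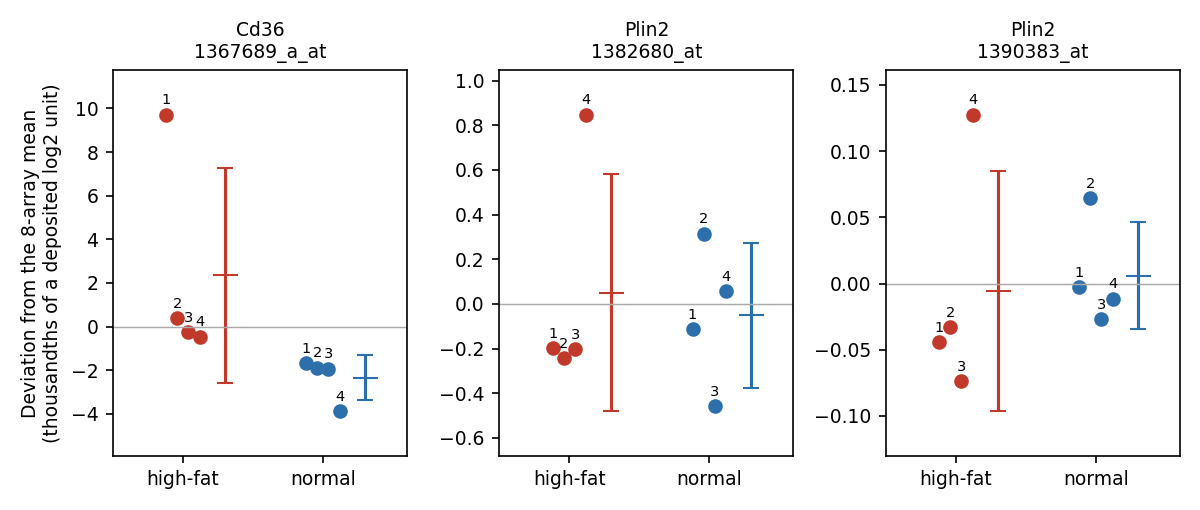
Deviation of each animal from the mean of the 8 arrays, in thousandths of a deposited log2 unit, for Cd36 and the 2 probe sets of Plin2, each panel with its own vertical scale. Numbered points are the replicates, and bars give the mean and SD of 4 animals. The high-fat animals lie above the normal ones for Cd36, with replicate 1 farthest up at a deviation of 0.00971 log2 units, and high-fat replicate 4 is the highest animal in both Plin2 panels.

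The probe sets whose pattern over the 8 arrays was most like that of Cd36 included red cell genes. Among 11664 named probe sets brighter than the array median, the 5 with the highest Pearson correlation were Kel, the Kell blood group protein (r = 0.969), Xpo7, a nuclear transport receptor that is also on the red cell list below (0.968), Gypc, glycophorin C of the red cell membrane (0.967), Slc1a5, a neutral amino acid transporter (0.966), and Tspan8, a tetraspanin (0.964). Of the 11664, 25 had an r of 0.9 or more. Spearman correlations of the 5 lay between 0.738 and 0.929. In each of the 5, high-fat replicate 1 was the highest animal. Without it, over 7 arrays, r fell to 0.660 for Kel, 0.786 for Xpo7, 0.642 for Gypc, 0.617 for Slc1a5 and 0.662 for Tspan8. Without normal replicate 4 as well, over 6 arrays, it was 0.588, 0.886, 0.518, 0.766 and 0.839 in the same order. These arrays share all processing, and the correlations describe 8 animals. None of the 5 was distinguished between the diets (limma, adjusted p = 1).

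Markers of the blood cells known to carry Cd36 were set beside it, beginning with red cell precursors. Of 10 measured red cell markers, 8 were higher in high-fat blood, 1 was lower and 1 was equal, with a median difference of 1.04 within-group SDs, while 5 were higher and 5 lower with the arrays centred, and 4 higher and 2 lower with quantile normalization. By limma 0 were called, and 3 had an unadjusted p under 0.05 (Hemgn, Slc4a1 and Klf1, named after their values were seen), beside 2.25% of all probe sets. Their Pearson correlations with Cd36 over the 8 arrays ran from 0.103 for Epb42 to 0.968 for Xpo7, with a median of 0.484. Endothelial markers had a median of 0.325. Off-blood genes ran from -0.716 to 0.519, with a median of -0.114. Their summed level ran from 101.6367 to 102.0309 in high-fat animals and from 101.5984 to 101.6173 in normal animals, and was highest in high-fat replicate 1. Most of that sum's spread came from Xpo7. With Xpo7 left out, an alternative added after seeing the data, the sum deviated from its mean by 0.0147 in high-fat replicate 1 and by -0.00186 to 0.00385 in the other high-fat animals, against -0.00971 to -0.00189 in normal animals. In high-fat replicate 1 most of this came from Ahsp, at 0.0100, and Hemgn, at 0.00410. As deposited, neither sum overlapped between the diets, beside 0.586% of all single probe sets with high-fat values all above. Without Xpo7 the lowest high-fat value, -0.00186, hardly exceeded the highest normal one, -0.00189. That gap is smaller than the difference between the array medians, 6.60e-05, which centring takes from each gene. The mean over all 10 markers with each scaled to its own SD over the arrays did overlap. It was 1.15, 0.151, 0.639 and -0.286 in high-fat replicates 1 to 4, against -0.474, -0.283, -0.363 and -0.537 in normal replicates 1 to 4. The brightest red cell marker, Hbb, at a level of 15.09, is the equal one. In high-fat replicate 1 Hbb deviated by only 5e-09 log2 units, so its being equal says little of red cell content. Rhag, at a level of 6.70, is the marker below the off-blood line. The part of red cell content in the Cd36 values was not tested.

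Pearson correlations with Cd36 over the 8 arrays ran from -0.328 to 0.362 for platelet markers (median 0.0241) and from -0.550 to 0.489 for monocyte markers (median -0.0379), ranges that overlap that of the red cell markers. Platelet markers had 7 of 9 members lower in high-fat blood (median -0.253 within-group SDs). With centring 9 of 9 were lower, and with quantile normalization 2 were lower and 7 equal. Their summed level ran from 84.6356 to 84.6376 in high-fat animals and from 84.6369 to 84.6375 in normal animals. The platelet genes Pf4 and Itga2b, named after their values were seen, at levels of 12.82 and 10.63, stood at -0.735 and -0.186 within-group SDs. The 2 higher ones, Itgb3 and Selp, at levels of 9.83 and 6.89, stood at 0.333 and 0.0132. Monocyte markers had 9 of 10 members higher (median 0.512), against 4 of 10 with centring and 8 of 10 with quantile normalization, which left 2 equal. Of all probe sets, 1.63% were higher with centring and 22.3% with quantile normalization. The monocyte sums ran from 76.5547 to 76.5798 in high-fat and 76.5535 to 76.5633 in normal animals, and the highest animal was high-fat replicate 4, not replicate 1. No marker of either list was called by limma.

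**Figure D3:**
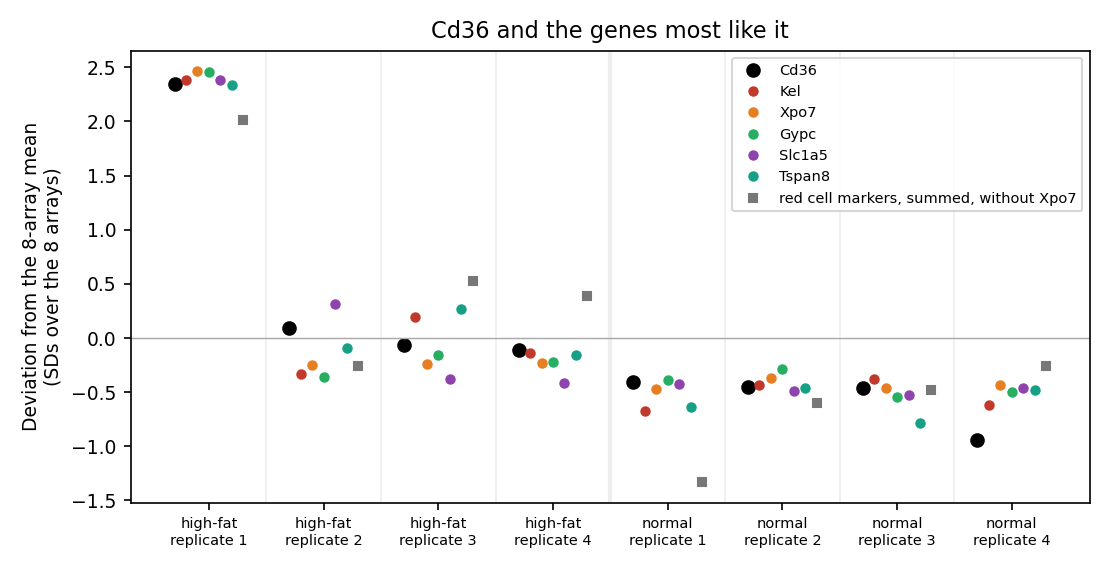
Deviation from the 8-array mean, in SDs over the 8 arrays, for Cd36, the 5 probe sets most correlated with it and the summed red cell markers without Xpo7, with 1 column per animal. High-fat replicate 1 is the highest animal for all 7, and the normal animals are below 0 for all of them.

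Lpl, whose product is the lipase that supplies Cd36-bearing cells with fatty acids, gave a signal within the off-blood range. Its deviations were -4.26e-07, 1.68e-07, 3.89e-06 and 3.59e-06 in high-fat replicates 1 to 4, against -2.25e-06, 7.17e-07, -2.31e-06 and -3.39e-06 in normal replicates 1 to 4. High-fat replicates 3 and 4 lay above all normal animals and the groups overlapped through normal replicate 2. The difference was 3.61e-06 ± 1.55e-06 (SE, n = 4 and 4), or 1.79 within-group SDs (limma, unadjusted p = 0.0535, adjusted p = 1). With centring it turned to -6.23e-05. As deposited it is the largest size in within-group SDs among the 10 probe sets, in a probe set that 23535 others exceed in SD over the arrays.

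The binding proteins gave small differences on dim signals. Fabp4 deviated by -1.14e-05, 3.74e-06, -2.41e-06 and -1.13e-05 in high-fat replicates 1 to 4, against 4.31e-06, 9.86e-06, 9.26e-06 and -2.04e-06 in normal replicates 1 to 4. High-fat replicates 1, 3 and 4 lay below all normal animals, replicate 3 narrowly, and high-fat replicate 2 lay among them. The difference was -1.07e-05 ± 4.40e-06 (SE), or -1.64 within-group SDs (limma, unadjusted p = 0.0465, adjusted p = 1). Fabp5 deviated by -1.74e-05, 2.57e-06, -7.09e-06 and 1.05e-05 in high-fat replicates 1 to 4, against 1.26e-06, -2.32e-06, 1.15e-05 and 9.50e-07 in normal replicates 1 to 4, a difference of -0.597 within-group SDs (limma, unadjusted p = 0.403), which quantile normalization turned to 8.81e-06. The high-fat animals held both the lowest value and the second highest of the 8.

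Plin2, which coats lipid droplets in most cell types, was well above the off-blood range and did not differ between the diets beyond the spread of the animals. Probe set 1382680_at deviated by -1.98e-04, -2.44e-04, -2.02e-04 and 8.47e-04 in high-fat replicates 1 to 4, against -1.15e-04, 3.14e-04, -4.59e-04 and 5.70e-05 in normal replicates 1 to 4. High-fat replicate 4 was the highest of all animals, and the 3 other high-fat animals lay within the normal range. The difference was 1.01e-04 (95% interval -5.96e-04 to 7.98e-04), or 0.230 within-group SDs (limma, unadjusted p = 0.740, adjusted p = 1). Leaving out high-fat replicate 4 turned it to -1.64e-04, and leaving out normal replicate 3 turned it to -3.51e-05.

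The second Plin2 probe set, 1390383_at, put the same animal highest. Its deviations were -4.44e-05, -3.28e-05, -7.36e-05 and 1.28e-04 in high-fat replicates 1 to 4, against -2.95e-06, 6.45e-05, -2.67e-05 and -1.14e-05 in normal replicates 1 to 4. High-fat replicate 4 was again highest and normal replicate 2 next. Over the 8 arrays the 2 probe sets had a Pearson correlation of 0.917 and a Spearman correlation of 0.762, and without high-fat replicate 4 a Pearson correlation of 0.762. The difference between the diets was -1.17e-05, or -0.167 within-group SDs (limma, unadjusted p = 0.809), opposite in sign to the first probe set, and it turned to 1.15e-06, 1.09e-05 and 7.82e-06 without high-fat replicate 1, high-fat replicate 3 and normal replicate 2. High-fat replicate 4 was also the highest animal for 9 of 10 monocyte markers, whose sum deviated by 0.0182 in that animal, by -0.00695 to -0.00183 in the other high-fat animals and by -0.00811 to 0.00166 in normal animals. The part of monocyte content in the Plin2 values was not tested.

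Plin1, the perilipin of fat cells, gave no shared pattern over its 2 probe sets, both within the off-blood range. Probe set 1369449_at deviated by -8.30e-07, 1.93e-06, 6.34e-06 and -2.82e-06 in high-fat replicates 1 to 4, against -4.45e-06, 1.99e-06, -3.76e-07 and -1.79e-06 in normal replicates 1 to 4. Probe set 1392583_at deviated by -1.58e-06, 3.11e-06, -7.17e-07 and -2.98e-06 in high-fat replicates 1 to 4, against -2.27e-07, 5.64e-07, -2.61e-07 and 2.10e-06 in normal replicates 1 to 4. The groups overlapped in both, at 0.681 and -0.543 within-group SDs (limma, unadjusted p = 0.366 and 0.503). Their Pearson correlation over the 8 arrays was 0.211, against the 0.917 of the Plin2 pair.

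The adipokine genes were likewise within the off-blood range. Adipoq deviated by -3.58e-07, -1.60e-05, -7.71e-06 and 3.04e-07 in high-fat replicates 1 to 4, against 1.84e-05, -4.52e-06, 2.34e-06 and 7.63e-06 in normal replicates 1 to 4. All 4 high-fat animals were below the normal mean and the groups overlapped, with a difference of -1.37 within-group SDs (limma, unadjusted p = 0.0823, adjusted p = 1). Lep deviated by 3.16e-06, 2.50e-06, -2.60e-08 and 3.64e-06 in high-fat replicates 1 to 4, against -3.43e-06, -6.12e-06, 6.41e-06 and -6.14e-06 in normal replicates 1 to 4. Here 3 normal animals lay below all high-fat ones and normal replicate 3 above them, and the difference was 1.06 within-group SDs (limma, unadjusted p = 0.168, adjusted p = 1). With centring the Lep difference turned to -6.13e-05, and the Adipoq difference stayed below 0. Across the 7 probe sets within the off-blood range no animal deviated by more than 1.84e-05.

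**Figure D4:**
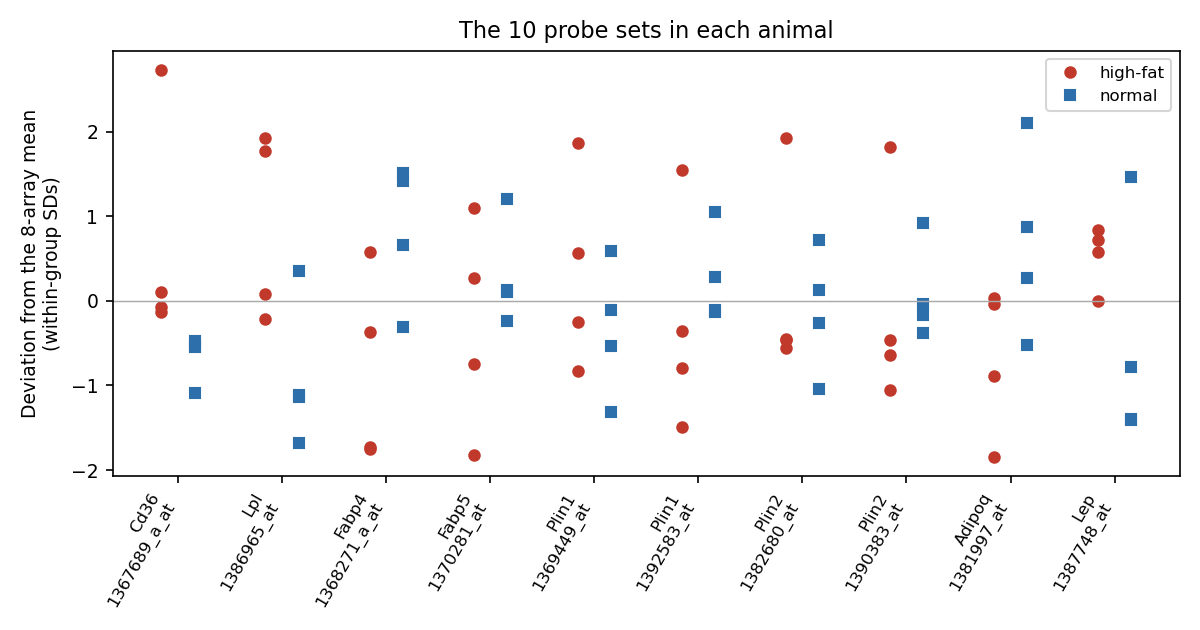
Deviation of each animal from the mean of the 8 arrays in within-group SDs of that probe set (vertical axis), high-fat animals as circles and normal animals as squares, for the 10 probe sets in order of role. For Cd36 the circles lie entirely above the squares, and in the other 9 probe sets the 2 groups overlap.

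The wider set of lipid handling genes was split between higher and lower values as deposited, and the split depended on the scaling. Of 90 genes listed by role, not counting those above, 85 were measured, each by its brightest probe set, and 40 of them passed the off-blood line. In high-fat blood 40 were higher and 45 lower as deposited, against 1 higher and 84 lower with the arrays centred and 27 higher, 27 lower and 31 equal with quantile normalization. Of all probe sets, 46.6%, 1.63% and 22.3% were higher, in the same order. The median difference was -0.0322 within-group SDs against -0.0479 over all probe sets. By limma 0 were called and 1 had an unadjusted p under 0.05, beside 2.25% of all probe sets. In none of the 85 did the groups separate without overlap, beside 0.586% of all probe sets with high-fat values all above and 0.857% with them all below. The counts by role below are for the values as deposited; with centring all genes of each role were lower except 1 of the 12 regulators. The genes named below are the pair with the smallest p of each role, and all had an adjusted p of 1 by limma.

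For uptake, 5 of 10 genes were higher and 5 lower. Slc27a1 and Slc27a2, fatty acid transport proteins, stood at 1.24 and -1.08 within-group SDs. Among partners of lipoprotein lipase 2 of 11 were higher and 9 lower (median -0.498), with Apoa5, an apolipoprotein that helps the lipase, at -1.43 and Angptl8, which takes part in inhibiting it, at -0.780. Among binding proteins 3 of 8 were higher and 5 lower, with Fabp2 of the gut, also on the off-blood list, at -1.09 and Fabp7 of the brain at -0.768. All 6 genes just named were within the off-blood range.

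Of the genes that activate fatty acids by joining them to coenzyme A or reverse that step, 5 of 8 were higher and 3 lower (median 0.441). Acsl1, a long-chain acyl-CoA synthetase at a level of 7.75, stood at 1.71 within-group SDs with an unadjusted p of 0.0383 by limma, the one such value in the set, but its difference turned to -2.52e-05 with centring and -2.25e-05 with quantile normalization. Acsl6 stood at 0.868. Among droplet coat and droplet formation genes 4 of 10 were higher and 6 lower, with seipin, Bscl2, at -1.19 and Fitm2 at 1.15. For triglyceride synthesis 3 of 10 were higher and 7 lower, with the first enzyme of the glycerolipid pathway, Gpam, at -1.54 and Agpat2 at -0.908. Acsl6, Gpam and Agpat2 were within the off-blood range, and Acsl1, Bscl2 and Fitm2 were above it.

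Among lipolysis genes 4 of 7 were higher and 3 lower. Abhd5, the co-activator of the main triglyceride lipase, stood at 1.02 and that lipase, Pnpla2, at 0.558, both above the off-blood line. Of adipokines and receptors 5 of 9 were higher and 4 lower, with the peptide Apln at 0.680 and the retinol carrier Rbp4 at 0.663. Rbp4 was within the off-blood range, and Apln was above the line. Adipor1, an adiponectin receptor chosen after its level was seen, had a level of 12.54 and stood at -0.0925 within-group SDs (adjusted p = 1 by limma). Of the transcriptional regulators 9 of 12 were higher and 3 lower (median 0.345), with Rxra at 0.963 and Pparg, the master regulator of fat cells, at 0.848, both within the off-blood range.

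**Figure D5:**
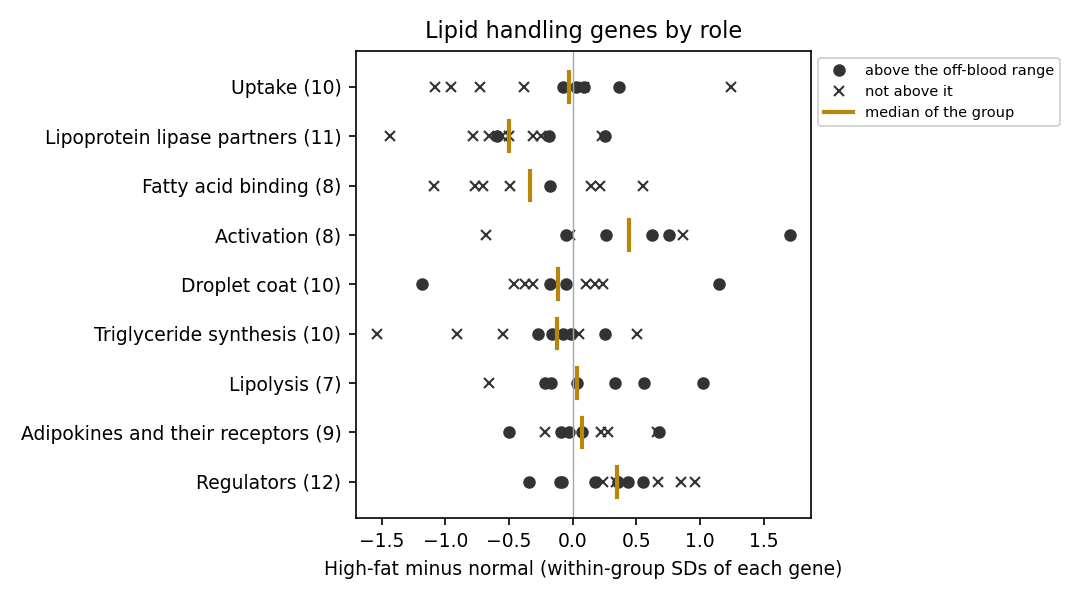
High-fat minus normal difference in within-group SDs (horizontal axis) for 85 lipid handling genes in 9 roles, with 1 mark per gene: filled circles are above the off-blood range and crosses are not. The role medians run from -0.498 for lipoprotein lipase partners to 0.441 for activation genes. Both higher and lower genes occur in each role in the values as deposited, whereas centring leaves 1 of the 85 higher, beside 1.63% of all probe sets.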

How the data were processed

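Whole blood total RNA was labelled with biotin for 8 Affymetrix 3' expression arrays, per the labels' protocols. The authors deposited 1 table of values on a log2 scale, from 5.19 to 15.25, with medians of 6.60. Background correction, normalization and summary of probes are not given in the sources used here. Sample titles gave each array's diet and replicate number.

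Of 31099 probe sets, 57 controls were left out. The platform annotation gave 1 symbol for 20826 of the rest, several for 436 and none for 9780, and all 10 probe sets of the members matched a GRCr8 gene number. Each probe set was fitted with lmFit and eBayes of limma 3.58.1 (R 4.3.3), with diet as the sole term; two-sided p-values were adjusted by Benjamini-Hochberg over all 31042 and called under 0.05, after the script had been tested on simulated data. The number of arrays limits the precision, and p-values measure the spread between these arrays. The exact permutation tests were two-sided and covered 10 probe sets. The members, marker lists and pathway list were chosen with earlier results of these data known. Named were all member probe sets, the 2 pathway genes per role with the smallest p, and the 5 probe sets most correlated with Cd36. Alternatives were quantile normalization on top, centring on array medians, eBayes with trend and robust, the replicate number as a block, brighter probe sets only, other lines for the off-blood range, and each animal left out.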

Additional observations from a re-analysis of the deposited data

Results flagged for a closer look

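Single animals stood apart in 3 of 56 groups of 4 looked at for the 28 named probe sets, where chance gives about 1 in 20. In each, the gap between the outermost animal and the next, as a share of the whole range of its group, passed the 95% critical value of 0.829 for 4 animals (Dixon's ratio). For Cd36 this ratio was 0.918 for high-fat replicate 1, the highest, and 0.891 for normal replicate 4, the lowest. For Plin2 (1382680_at) it was 0.958 for high-fat replicate 4, the highest. In the Plin2 probe set 1390383_at the same animal was highest without passing that value.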

How the results depend on the processing

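The 3 probe sets above the off-blood range remained 3 with the 90th percentile, with the brightest off-blood probe set and without each animal, and were 4 (Lep added) with the median of all probe sets. By limma, 0 of 31042 probe sets were called with trend and robust (701 with an unadjusted p under 0.05) or with centring (smallest adjusted p 0.0875). With centring the lowest adjusted p of the 28 named probe sets was 0.191 by limma, shared by Cd36 and many others, among them Lpl, Fabp4 and Adipoq. There were also 0 calls with the replicate number as a block, among brighter probe sets and without each animal. Quantile normalization on top called 32, none of them a member, of which 30 had no spread within either group. Same-numbered animals deviated with correlations of -0.125, 0.205, 0.368 and 0.144, not every one above 0.1, and no label ties the numbers to a shared batch, so the animals were not treated as pairs. High-fat replicate 1 correlated best with normal replicate 3 (0.199). The block left the Cd36 difference at 0.00468 (0 calls). The Cd36 difference stayed above 0 in every alternative, from 0.00172 to 0.00562 (0.00296 with quantile normalization, 0.00223 without high-fat replicate 1), the lowest without high-fat replicate 1 and normal replicate 4, a setting added after seeing the data.

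Centring lowers every difference by the difference between the array medians, 6.60e-05, and turned 13 of 28 from above to below 0: Lpl -6.23e-05, Plin1 (1369449_at) -6.37e-05, Lep -6.13e-05, Slc27a1 -6.09e-05, Acsl1 -2.52e-05, Acsl6 -6.23e-05, Fitm2 -4.81e-05, Abhd5 -9.00e-07, Pnpla2 -6.13e-05, Apln -6.09e-05, Rbp4 -6.13e-05, Rxra -5.88e-05 and Pparg -6.29e-05. Quantile normalization put 13 of 28 at 0, since many probe sets keep their rank in every array, and turned Fabp5 to 8.81e-06, Plin2 (1390383_at) to 1.82e-05, Acsl1 to -2.25e-05 and Pnpla2 to -2.73e-05. Leaving out animals gave -1.64e-04 to 2.23e-04 for Plin2 (1382680_at) and -5.61e-05 to 1.09e-05 for Plin2 (1390383_at), and turned no other named difference. The cause was not tested beyond this.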
